A study of Rattus norvegicus with 24 samples.

Results

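Apoe, Fabp7, Mbp, Sparc and Glul, 5 genes usually read as signs of glia, were followed in neurons that had been picked by hand from rat dorsal root ganglia (DRGs). They were 5 of the 32881 genes counted. They were chosen because earlier results from these same cells had shown them high in a small cluster of cells, so their spread over cells, libraries and clusters is given as a description, without a test. Cells entered when they held at least 500 genes, at least 1000 unique molecular identifiers (UMIs, tags that mark each captured RNA molecule) and under 5% of UMIs from mitochondrial genes. Of 1464 cells, 1433 met these limits, and no pair of cells shared identical counts.

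Each sensory neuron of a ganglion is wrapped by satellite glial cells, and its axon is accompanied by Schwann cells, some of which form myelin. Apolipoprotein E, encoded by Apoe, carries lipids between cells and is a major product of satellite glia and other glia. Fabp7 encodes a brain-type fatty acid binding protein and is widely used to mark satellite glia. Glul encodes glutamine synthetase, which turns glutamate into glutamine and is another satellite glial marker. Mbp encodes myelin basic protein of compact myelin, and its locus also gives rise to golli transcripts that neurons can make. Sparc encodes a secreted matrix glycoprotein made by Schwann cells, satellite glia, fibroblasts and endothelial cells. A ganglion neuron stripped incompletely of its satellite sheath can carry glial RNA into the tube, and glial RNA picked with a neuron cannot be told apart here from RNA that the neuron made itself.

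All cells came from the L4 and L5 ganglia of specific-pathogen-free male Sprague-Dawley rats, whose age is not given in the sources used here. In spared nerve crush (SNC) the tibial and common peroneal branches of the sciatic nerve were crushed and the sural branch was left intact, while in sham rats the nerve was only exposed. In the labelled series fluorescent dyes had been injected into the nerve branches beforehand, and single fluorescent neurons were drawn up by mouth pipette after enzymatic dissociation. The labelled series had 16 ganglion samples: 4 sham samples (named Xin, 4, 10 and 18), 4 taken 1 day after SNC (13, 16, 17-1 and 17-2), 3 taken at 3 days (14, 15 and 17-3) and 5 taken at 7 days (S, 8, 9, 19-1 and 19-2). A further 7 sham libraries, called the added series below, were taken at day 0 (S1, S2 and S7), 1 day (S3 and S6), 3 days (S4) and 7 days (S5). The protocol shared by all libraries speaks of fluorescent neurons, but the study also describes further neurons used to annotate subtypes, and whether an added library held dye-labelled cells is not given for each library in the sources used here, nor is its preparation date. The dye seen in each cell is not part of the cell names.

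The cell-level depth was high. The median cell held 239286 UMIs and 9133 genes in the labelled series (930 cells) and 340145 UMIs and 10165 genes in the added series (503 cells). Levels in cells are in counts per 1000000 UMIs of that cell (CPM). Reads came from 3′ ends, so CPM was not divided by transcript length and levels are compared between cells and samples of a gene, not between genes. Pan-neuronal transcripts were present throughout, with a lowest Tubb3 level of 913 CPM among the cells richest in glial genes. Samples Xin and 17-1 (24 cells each) and library S4 stood apart for several of the 5 genes, and S1 and S2 stood apart for low Apoe.

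The stretches upstream of Apoe, Sparc and Fabp7 are shown because these 3 members were high in the same cells. Each run covers 250 bases before to 50 bases after a transcription start in the RefSeq annotation of build GRCr8, 5′ to 3′ on the strand of the gene. The deposited counts were made on Rnor_6.0 and carry no positions, so the coordinates belong to GRCr8 alone. Starts were listed for all 5 members, and of several Apoe starts 1 is shown. The Apoe window is chr1:88484650-88484949 on the minus strand, that of Fabp7 chr20:37669356-37669655 on the plus strand and that of Sparc chr10:40038767-40039066 on the minus strand. Capitals mark matches on either strand to the SOX factor core AACAAT, to a second such core, ACAATG, which can overlap the former, to a further SOX core, ACAAAG, to the CCAAT box and to the GC box GGGCGG.
Apoe: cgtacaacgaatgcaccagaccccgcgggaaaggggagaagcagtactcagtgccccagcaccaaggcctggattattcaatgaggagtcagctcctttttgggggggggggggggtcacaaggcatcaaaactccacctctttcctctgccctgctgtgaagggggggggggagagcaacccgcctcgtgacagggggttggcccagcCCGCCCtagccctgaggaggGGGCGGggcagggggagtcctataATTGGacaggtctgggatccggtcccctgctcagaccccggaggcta
Fabp7: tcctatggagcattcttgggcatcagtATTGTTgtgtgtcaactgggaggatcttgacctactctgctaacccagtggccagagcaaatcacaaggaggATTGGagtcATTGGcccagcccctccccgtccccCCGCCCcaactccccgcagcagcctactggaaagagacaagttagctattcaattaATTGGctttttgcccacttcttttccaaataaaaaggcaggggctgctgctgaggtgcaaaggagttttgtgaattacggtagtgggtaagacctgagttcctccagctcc
Sparc: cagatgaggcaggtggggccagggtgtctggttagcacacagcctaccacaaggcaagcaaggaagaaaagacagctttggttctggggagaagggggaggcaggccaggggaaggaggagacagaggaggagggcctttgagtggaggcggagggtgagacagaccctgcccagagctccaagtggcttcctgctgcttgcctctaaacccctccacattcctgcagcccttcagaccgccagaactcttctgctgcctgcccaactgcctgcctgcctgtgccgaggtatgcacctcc
The Fabp7 window held 1 AACAAT match (read as ATTGTT), 3 CCAAT matches (read as ATTGG) and 1 GC box. The Apoe window held 2 GC boxes and 1 CCAAT match. None of these letters occurred in the Sparc window. Of 33469 rat promoter windows of the same length, 11.7% held AACAAT, 13.2% ACAATG, 18.8% ACAAAG, 37.5% CCAAT and 33.1% GGGCGG, so the matches are common and are given as a description only.

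The 5 genes were spread over the cells in different ways. Apoe, Sparc and Fabp7 sat at low levels in most cells with a long upper tail, while Glul was present at a similar level in nearly every cell, and Mbp lay between. In the labelled series the median cell had 27.7 CPM of Apoe, the 90th percentile was 330 CPM, the 99th percentile was 3448 CPM and the highest cell reached 27349 CPM. Sparc, the matrix glycoprotein, ran from a median of 3.08 CPM to 82.2 CPM at the 90th percentile and 3311 CPM in the highest cell. Fabp7 was at 0 in the median cell, 10.9 CPM at the 90th percentile and 491 CPM in the highest cell. Glul moved over a far narrower range, from 27.1 CPM at the 10th percentile to 84.5 CPM in the median cell and 428 CPM in the highest. Mbp had a median of 24.2 CPM, a 90th percentile of 184 CPM and a maximum of 675 CPM, so it varied widely without the extreme tail of Apoe.

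The share of a gene's UMIs that came from the 10% of cells with most of them puts these shapes on a common scale. In the labelled series that share was 76.6% for Apoe, 84.5% for Sparc and 83.5% for Fabp7, against 55.0% for Mbp and 38.5% for Glul. In the same cells the subtype-restricted neuronal genes Sst and Trpm8 gave 89.3% and 74.3%, and the pan-neuronal genes Tubb3, Elavl4, Rbfox3 and Snap25 gave 22.9%, 23.5%, 32.7% and 28.7%. Apoe, Sparc and Fabp7 thus lay between Trpm8 and Sst, and Glul was closest to Rbfox3. After each cell was thinned to 20000 UMIs, which 54 of the 1433 cells could not supply, the shares were 81.0% for Apoe, 85.8% for Sparc, 49.0% for Mbp and 29.4% for Glul. Thinned Fabp7 had UMIs in so few cells (6.32%) that its share became 100% by construction. In the added series Apoe and Sparc were less concentrated, at 61.6% and 68.9%, while Fabp7 (82.6%), Mbp (53.6%) and Glul (40.2%) were close to their labelled values. No test was made of these shares.

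**Figure D1:**
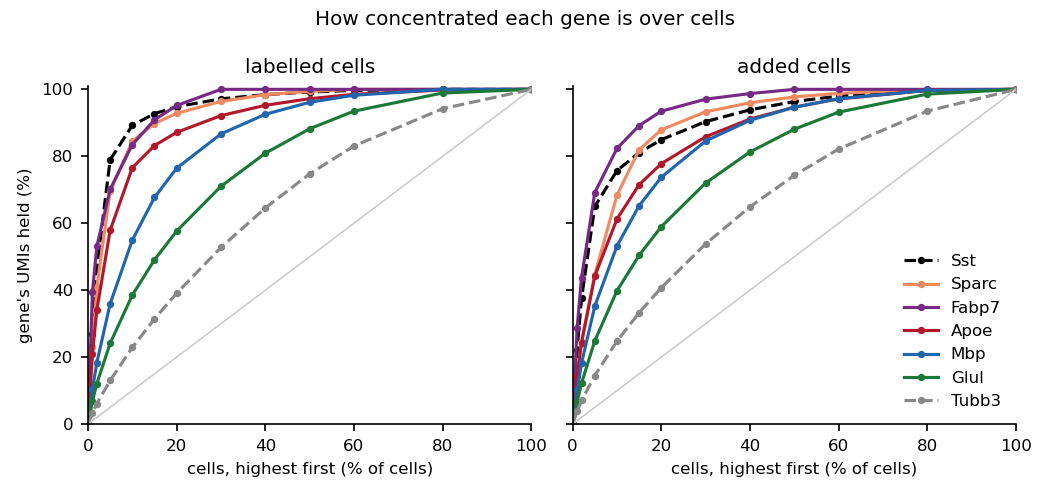
Cumulative share of a gene's UMIs (percent, vertical axis) against the share of cells taken from the highest down (percent, horizontal axis), for the 5 members (solid) and for Tubb3 and Sst (dashed), in the labelled and the added series. In the labelled panel the highest 10% of cells hold 84.5% of Sparc UMIs and 38.5% of Glul UMIs, and at that point Apoe (76.6%), Sparc and Fabp7 (83.5%) lie below Sst (89.3%) and above Mbp (55.0%).

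A lower level was nevertheless present beneath the tail. Apoe had at least 1 UMI in 87.8% of labelled and 92.6% of added cells, and Glul in 94.6% and 97.8%. Mbp had a UMI in 80.1% and 87.5% of cells, Sparc in 56.6% and 83.9%, and Fabp7 in 26.8% and 48.3%. These shares follow depth: at 20000 UMIs a cell, labelled cells with a UMI fell to 47.6% for Apoe, 77.1% for Glul, 47.1% for Mbp, 20.3% for Sparc and 6.32% for Fabp7. No cell type that should lack Apoe was picked, so no background share from such cells can be set beside these.

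Levels by sample were compared in CPM of UMIs summed over the cells of a sample and scaled by the trimmed mean of M-values (TMM CPM) over all 23 samples. Apoe in sham samples was 838 TMM CPM in Xin, 100.4 in 4, 115 in 10 and 194 in 18. It was 117 in 13, 107 in 16, 579 in 17-1 and 249 in 17-2 at 1 day. At 3 days it was 121 in 14, 24.1 in 15 and 102.3 in 17-3, and at 7 days 124 in S, 91.9 in 8, 92.4 in 9, 53.9 in 19-1 and 72.1 in 19-2. Xin and 17-1 were the 2 highest samples of all 23, sample 15 was the lowest of the labelled series, and the other sham samples overlapped every injury group. In the added series Apoe was 7.01 in S1, 21.0 in S2, 319 in S7, 196 in S3, 189.7 in S6, 246 in S4 and 327 in S5. S1, S2 and S7 carry the same day 0 label, so the lowest and the second highest added libraries came from that label.

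Sparc too was highest in Xin and 17-1. It was 291 TMM CPM in Xin against 23.9, 32.5 and 53.7 in sham samples 4, 10 and 18, and 137 in 17-1 against 28.1, 27.4 and 63.3 in 13, 16 and 17-2. Samples at 3 days gave 32.7 in 14, 12.7 in 15 and 28.0 in 17-3, and those at 7 days gave 36.9 in S, 16.7 in 8, 23.7 in 9, 20.2 in 19-1 and 29.2 in 19-2. Added libraries held 15.3 in S1, 15.2 in S2, 109.6 in S7, 83.5 in S3, 89.7 in S6, 128 in S4 and 119 in S5. All 5 added libraries other than S1 and S2 were thus above every labelled sample except 17-1 and Xin.

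Fabp7 was low everywhere, and its highest samples were again Xin (22.9 TMM CPM) and 17-1 (26.1), joined by the added libraries S7 (23.5) and S5 (21.6). The other sham samples gave 3.29 in 4, 3.77 in 10 and 7.47 in 18. The other samples at 1 day gave 2.76 in 13, 4.75 in 16 and 10.8 in 17-2. All 8 samples at 3 and 7 days lay between 1.41 and 5.91. The other added libraries gave 4.41 in S1, 5.66 in S2, 11.3 in S3, 16.9 in S6 and 9.06 in S4, so S1 and S2, the lowest for Apoe, were inside the labelled range for Fabp7.

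Mbp was highest in Xin (238 TMM CPM) and next in S4 (131), and 17-1 (117) and 16 (114) followed. The other sham samples gave 46.9 in 4, 50.9 in 10 and 80.02 in 18, and the other samples at 1 day gave 71.6 in 13 and 77.2 in 17-2. At 3 days the values were 39.3, 50.8 and 53.2 in 14, 15 and 17-3, and at 7 days 50.8, 31.8, 75.6, 43.7 and 96.8 in S, 8, 9, 19-1 and 19-2. Added libraries other than S4 were tightly placed, between 38.3 in S7 and 55.8 in S5, although S7 and S5 had the highest Apoe of that series. Library S4, in turn, had less Apoe than S7 and S5 and the most Mbp of the added libraries.

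Glul spanned the narrowest range, from 64.7 TMM CPM in S4 to 136 in 16. Sham samples gave 124 in Xin, 88.8 in 4, 99.1 in 10 and 106 in 18. Samples at 1 day gave 123, 136, 129 and 105 in 13, 16, 17-1 and 17-2, those at 3 days 88.7, 107 and 90.7 in 14, 15 and 17-3, and those at 7 days 112, 115, 121, 122 and 131 in S, 8, 9, 19-1 and 19-2. Added libraries gave 86.5, 78.6, 109.6, 85.0, 87.7, 64.7 and 84.7 in S1, S2, S7, S3, S6, S4 and S5. Of the samples that stood out for Apoe, Xin (124) and 17-1 (129) lay in the upper part of this narrow range. S1 (86.5) and S2 (78.6) lay in its lower part, and S4, high in Mbp and Sparc, was the lowest for Glul.

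**Figure D2:**
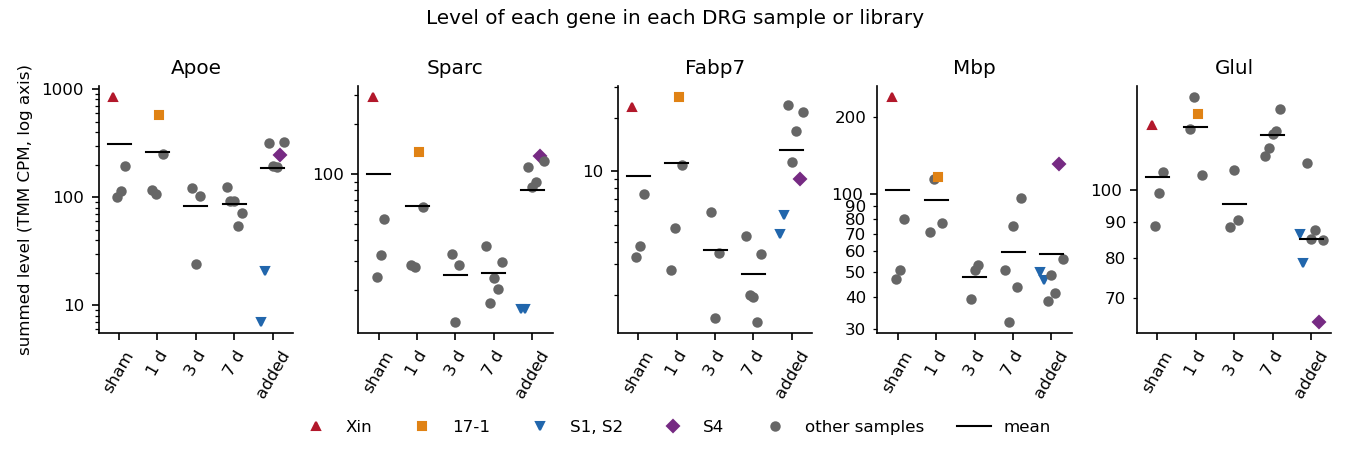
TMM CPM (log axis) of each member in each of 23 samples, by group (sham, 1, 3 and 7 days after SNC, added sham), with the group mean as a bar and Xin, 17-1, S1, S2 and S4 marked by their own symbols. Xin lies above the other sham samples for Apoe (838 against 100.4 to 194), Sparc, Fabp7 and Mbp, while the 23 Glul values stay between 64.7 and 136.

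Apoe and Sparc had a correlation of 0.88 over the 23 samples, Apoe and Fabp7 0.71, Apoe and Mbp 0.47 and Apoe and Glul 0.16, all on log2(TMM CPM + 1). These samples share groups and differ in depth, so the values describe the set, and Apoe and Mbp fell to 0.30 without Xin. Among genes with a mean of at least 10 CPM, those most like Apoe over samples were Gpm6b (0.93), Fxyd1 (0.92) and Tyrp1 (0.92). For Sparc they included Abhd4 (0.96) and Art3 (0.94), and for Fabp7 they included Plekhb1 (0.93) and Sparc itself (0.89). Mbp came out closest to Sfi1 (0.77), Nudt18 (0.75) and Coro1b (0.73), and Glul to genes including Tada1 and Pold4 (0.88 each), none of which is a gene of the glial lists used here. Without Xin the genes closest to Mbp were Sfi1 (0.74), Gnpnat1 (0.71) and Btbd19 (0.71).

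The typical cell of a sample gave another order than the summed level. Median Apoe per cell ran in the labelled series from 8.06 CPM (sample 15) to 368 CPM (17-1), with 22.9 CPM in the middle of the 16 samples and 213 CPM in Xin. In the added series it was 0.66 CPM in S1, 8.00 in S2, 73.3 in S3, 80.4 in S6, 114 in S5, 120.5 in S7 and 151 in S4. Sample 17-1 thus had the highest typical cell, while Xin had the highest sum. Median Mbp was 149.6 CPM in Xin, 97.8 in S4 and 87.6 in 17-1, and between 9.61 and 37.9 in the other 20 samples. Median Glul ran from 42.0 CPM in S4 to 123 CPM in 17-1.

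The Apoe excess of Xin rested in large part on a few cells. Its mean over 24 cells was 1757 CPM, against 90.02 to 223 CPM in the other sham samples. Its highest cell held 27349 CPM of Apoe, which came from only 223 of 8154 UMIs, together with 3311 CPM of Sparc and 491 CPM of Fabp7 (4 UMIs). The same cell held 4170 CPM of the neuronal tubulin Tubb3. Without that cell the mean of Xin was 644 CPM for Apoe, 199 for Sparc (328 with it) and 14.3 for Fabp7 (34.2 with it), and all 3 were still above the other sham samples. Mbp in Xin did not rest on it, with means of 185 CPM with and 187 CPM without the cell against 50.3 to 77.2 CPM in the other sham samples. Glul in Xin (92.4 CPM) was just above the other sham samples (78.6 to 91.3 CPM) with the cell and inside their range without it (85.8 CPM).

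To count cells in the tail, a cell was called glial-rich when its 5 members summed to at least 2000 CPM. This is a limit on a continuous level, not a cell type. It was met by 61 of 1433 cells (4.26%, exact 95% binomial interval 3.27 to 5.43%), 43 of 930 in the labelled series (4.62%) and 18 of 503 in the added series (3.58%). Such intervals cover counting error only. The member sum just inside the limit was 2014 CPM and that just outside was 1989 CPM, both in S5, and 44 cells lay within 20% of it. A limit of 1000 CPM was met by 9.70% of all cells and a limit of 5000 CPM by 0.558%, so the share is set by where the line falls.

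Glial-rich cells were not spread evenly. In sham samples they were 7 of 24 cells in Xin (29.2%, interval 12.6 to 51.1%), 2 of 48 in 4, 1 of 47 in 10 and 5 of 96 in 18. At 1 day they were 6 of 94 cells in 13, 3 of 96 in 16, 3 of 24 in 17-1 and 0 of 24 in 17-2, with an exact interval up to 14.2%. At 3 days they were 3 of 95 in 14, 2 of 94 in 15 and 2 of 48 in 17-3, and at 7 days 4 of 96 in S, 3 of 48 in 8, 1 of 48 in 9, 1 of 24 in 19-1 and 0 of 24 in 19-2. Only Xin had an interval that began above the share over all cells. Added libraries had 0 of 44 in S1, 0 of 46 in S2, 4 of 48 in S7, 1 of 96 in S3, 4 of 88 in S6, 1 of 86 in S4 and 8 of 95 in S5. S4 therefore had high typical levels and a single glial-rich cell, and S5 had the most glial-rich cells of any sample. Cells of S1 outside the limits on cells are left out here, and with them S1 had 4 glial-rich cells of 48. Summed over groups the shares were 6.98% for sham samples and, with time after SNC, 5.04%, 2.95% and 3.75%. Xin gave 7 of the 15 glial-rich cells of the sham samples. Over all samples without Xin, 54 of the remaining 1409 cells (3.83%) were glial-rich. Groups were not compared by a test on these cells, since cells of a sample are not replicates.

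**Figure D3:**
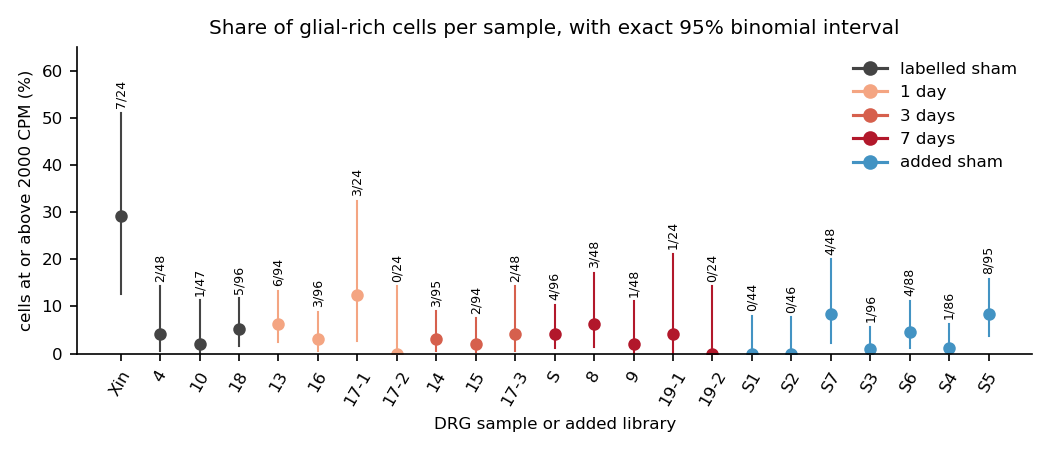
Share of cells whose 5 members sum to at least 2000 CPM (percent, vertical axis) in each of 23 samples, with exact 95% binomial intervals and the number of such cells over all cells. Xin stands at 29.2% with 7 of 24 cells, and the intervals of the other samples overlap each other.

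The glial-rich cells held more of several other glial genes beside their neuronal RNA. Over the 14 labelled samples that had any, their mean was 2851 CPM of Apoe (SD 1109) against 96.7 CPM in the other cells of the same samples, 530 CPM of Sparc (SD 168) against 21.3 CPM, and 62.6 CPM of Fabp7 (SD 41.1) against 2.52 CPM. These 3 differences follow from the limit itself, to which Apoe adds most. Glul was lower in the glial-rich cells (72.9 against 89.8 CPM) and higher in only 4 of 14 samples, so among the members it did not go with the others. Mbp was 123 CPM (SD 73.4) against 64.1 CPM and higher in 11 of 14 samples. In the added series, over 5 samples, Mbp was 277 CPM (SD 419.9) against 63.1 CPM and Glul 88.8 against 84.0 CPM.

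Genes outside the limit were then read in the same cells, without a test. A labelled sample had between 1 and 7 glial-rich cells, set against 17 to 93 others. Genes with few UMIs are therefore often at 0 in the glial-rich cells alone, and counts of samples say little for them. Of genes made by both satellite glia and Schwann cells, the cadherin gene Cdh19 was at 35.4 against 1.66 CPM, and Sox10, the transcription factor of the peripheral glial lineage, at 10.1 against 0.52 CPM. Satellite genes were mixed. The endothelin receptor gene Ednrb stood at 31.5 against 2.13 CPM and was higher in 12 of 14 samples, Ptprz1 at 41.6 against 9.64 CPM (13 of 14), the gap junction gene Gja1 at 10.2 against 0.55 CPM (10 of 14) and Gfap at 10.1 against 0.37 CPM (10 of 14). The glutamate transporter gene Slc1a3 (3.34 against 0.31 CPM) was higher in 7 and Hepacam (3.44 against 0.57 CPM) in 8 of 14 samples. The water channel gene Aqp4 was lower in 11 of 14 (means 0.92 and 0.69 CPM), and Kcnj10, a potassium channel gene typical of satellite glia, was almost absent at 0.36 CPM against 0. Among Schwann cell genes, Egr2, the regulator of myelination, stood at 43.9 against 1.35 CPM and was higher in 13 of 14 samples. Periaxin (Prx) was at 3.47 against 1.04 CPM and higher in 2 of 14 samples, and Mag and Ncmap were near 0 (0.16 and 0.24 CPM). Genes listed for satellite glia and for Schwann cells were therefore both present, each list with a defining marker close to 0.

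Other genes that are often listed as glial hardly separated these cells. Pmp22 was at 1108 against 1018 CPM, S100b at 359.9 against 344 CPM, Aldoc at 411 against 360.2 CPM and Ngfr at 232 against 281 CPM, so all 4 were abundant in the picked neurons at large. Neuronal genes were at high levels on both sides but not equal, with Tubb3 at 3480 against 3015 CPM (higher in 10 of 14 samples), Rbfox3 at 154 against 217 CPM (lower in 12 of 14, and in 5 of 5 added samples) and Nefl at 1073 against 1224 CPM (lower in 11 of 14). The lowest Tubb3 in any labelled glial-rich cell was 1304 CPM. Genes of other cell types were mixed. Fibroblast collagen Col1a1 was higher, at 21.6 against 2.41 CPM in 13 of 14 samples, while the fibroblast gene Dcn was lower in 12 of 14 (0.68 against 1.59 CPM) and Lum was at 0. The macrophage receptor gene Csf1r (2.87 against 1.82 CPM), the endothelial genes Egfl7 (8.98 against 5.26 CPM) and Flt1 (2.60 against 1.05 CPM) and the mural gene Pdgfrb (1.15 against 0.40 CPM) had higher means, and were higher in 5, 8, 2 and 3 of 14 samples. The macrophage genes C1qa and C1qb and the mural genes Acta2 and Kcnj8 were at 0 in the labelled glial-rich cells, and the endothelial gene Cldn5 was at 0 in all labelled cells of these samples. Means in the other cells were 0.52, 0.78, 0.47 and 0.18 CPM, and 0.33 CPM for Lum. Values of 0 in the few glial-rich cells therefore say little. The part of these cell types in the glial-rich cells was not tested. Depth differed as well. Labelled glial-rich cells had a median of 134384 UMIs against 245215 in the others, while in the added series the order was turned, 512384 against 338580. Its part in the counts of glial-rich cells was not tested.

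**Figure D4:**
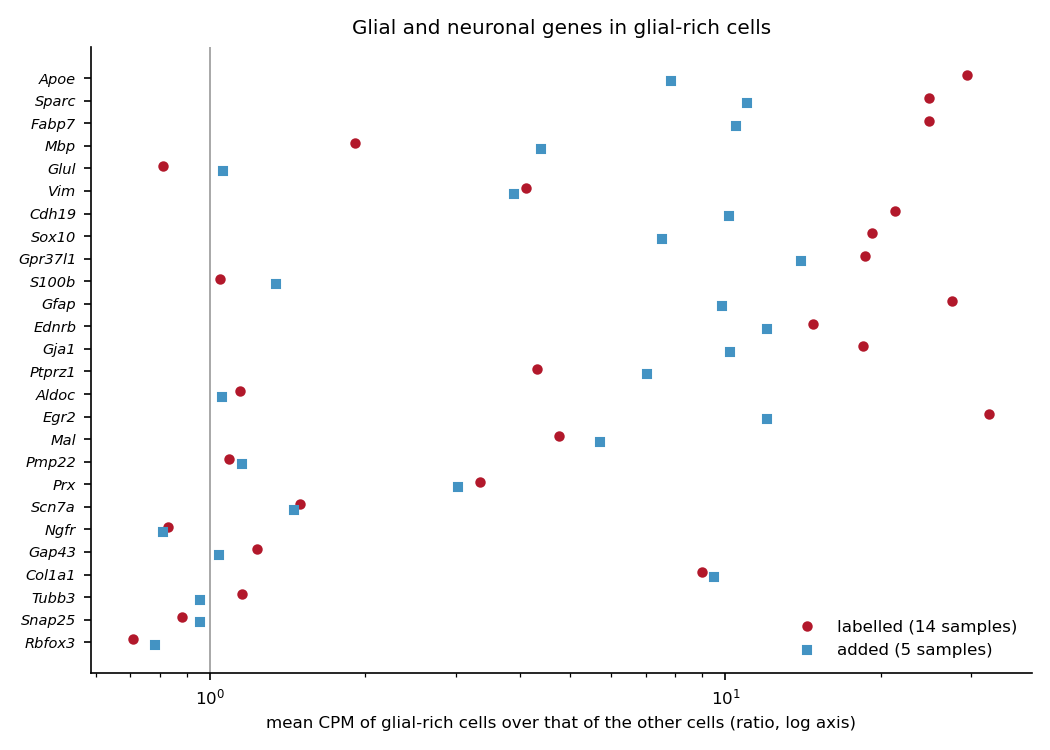
Ratio of the mean CPM in glial-rich cells to that in the other cells of the same samples (log axis) for members, glial, fibroblast and neuronal genes, over 14 labelled and 5 added samples. Apoe, Sparc, Fabp7, Gfap and Egr2 lie well to the right of 1 in both series, while Glul, S100b, Pmp22, Ngfr, Tubb3 and Snap25 lie near 1.

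Satellite and Schwann genes were each detected in most of these cells, apart from a few defining markers. Of the 61 glial-rich cells, 59 had a UMI of Sparc, 53 of Fabp7, 49 of Ednrb, 47 of Cdh19, 45 of Egr2, 34 of Sox10 and 32 of Gfap. Only 12 had a UMI of Prx, 4 of Mag, 3 of Ncmap and 2 of Kcnj10. In the labelled series Fabp7 had a UMI in 35 of 43 glial-rich cells and in 24.1% of the 887 others. Of the 485 other added cells, 46.4% had one.

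Below the limit a graded background remained. Median Apoe in these cells ran from 7.36 CPM (15) to 273 CPM (17-1) over the 16 labelled samples, with 21.8 CPM in the middle and 138 CPM in Xin, and from 0.66 CPM (S1) to 145 CPM (S4) over the 7 added libraries. Xin therefore kept a raised Apoe after its glial-rich cells were set aside, although its mean Fabp7 below the limit was 1.11 CPM, the lowest of the labelled samples. Mbp behaved otherwise, since its median below the limit was still 145 CPM in Xin and 96.6 CPM in S4, against a middle value of 21.6 CPM over the labelled samples. Glial-rich cells held 44.4% of all labelled Apoe UMIs and 45.1% of Sparc UMIs, and 23.9% and 22.4% in the added series. In Xin they held 80.6% of Apoe, 86.9% of Sparc and 93.8% of Fabp7 UMIs, but 39.3% of Mbp and 36.5% of Glul UMIs. For the middle labelled sample these last 2 shares were 4.94% and 1.74%.

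The lower level was also read against the depth of the cell. Cells below the limit were ranked by UMIs within each of the 16 labelled samples and cut into 3 equal parts. Mean Apoe was 105, 112 and 89.3 CPM in the shallow, middle and deep part, which corresponds to 8.25, 30.9 and 49.6 UMIs at depths averaging 85820, 253239 and 490607 UMIs. Fabp7 gave 2.66, 3.54 and 2.84 CPM, Sparc 15.6, 28.9 and 24.1 CPM, and Mbp 55.1, 72.0 and 73.1 CPM. Apoe UMIs were thus more numerous in deeper labelled cells while its CPM changed little. In the 7 added libraries the order was another one, with Fabp7 at 4.35, 6.88 and 11.5 CPM and higher in the shallow part in only 1 of 7, Sparc at 47.9, 62.1 and 78.7 CPM (2 of 7) and Apoe at 192, 144 and 170.1 CPM (5 of 7). In the labelled series Glul gave 73.1, 92.8 and 115 CPM, and its level was higher in the shallow part in only 1 of 16 samples, whereas Tubb3 gave 4269.7, 2548 and 2025 CPM and was higher in the shallow part in 16 of 16. The source of the lower level was not tested.

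Within samples, the members fell into 3 patterns over cells, described by the within-sample correlation of log2(CPM + 1) averaged over 23 samples, whose cells share library and depth. Apoe and Sparc had a mean correlation of 0.60 and shared 66.7% of their 153 highest cells. Apoe and Fabp7 (0.43, 49.7% shared) and Fabp7 and Sparc (0.42, 46.4%) followed. Mbp was weakly linked to Sparc (0.27, 22.2%) and Apoe (0.20, 18.3%), and Glul was unlinked to Apoe (0.03, 8.497%).

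The genes most like each member over cells differed in the same way. Besides each other, Apoe and Sparc were among others most like Ttyh1, and Apoe also like Sod3 (0.57) and the melanosome gene Tyrp1 (0.57). Sparc was further like Gpm6b and Cmtm5, and Fabp7 like Sod3 (0.54), Ttyh1, Ctsh, Mmd2 and Gas7. The genes most like Mbp included Cryab, Mal, Sparc and Prx, of which Mal and Prx encode proteins of myelinating Schwann cells. Glul was most like Abhd5 (0.38), Vps11, Serp1, Poldip2 and Ap2a2, and no glial marker was among them.

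A similar split was seen among the 887 labelled cells below the limit when the 89 highest for a member were set against the other 798. The cells highest in Apoe had more Sparc (111 against 9.55 CPM) and Fabp7 (11.7 against 1.57 CPM). The cells highest in Sparc had more Mal (21.0 against 0.76 CPM) and Prx (6.73 against 0.74 CPM). The cells highest in Mbp had more Mal (12.0 against 1.76 CPM), Prx (4.80 against 0.96 CPM) and Ncmap (1.21 against 0.051 CPM). The cells highest in Glul had more S100b (646 against 296 CPM) and Ednrb (5.97 against 1.66 CPM) but less Slc1a3 (0.076 against 0.27 CPM), Gja1 (0.35 against 0.71 CPM), Ptprz1 (7.00 against 10.7 CPM) and Sox10 (0.33 against 0.70 CPM). They were also deeper, with a median of 426166 against 225618 UMIs. In the added series the cells highest in Glul had S100b at 475 against 444 CPM. Most of the genes that were lower in labelled cells were not lower there. Gja1 was at 3.46 against 2.34 CPM, Slc1a3 at 2.18 against 2.08 CPM and Sox10 at 4.52 against 4.16 CPM, while Ptprz1 was lower (12.2 against 20.4 CPM).

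Clusters were rebuilt with the settings of the methods and are named by number and leading genes. In the labelled series 36 of the 43 glial-rich cells fell into cluster 8, which had 42 cells from 15 samples and was led by Sostdc1, Tyrp1 and Ptgds. Over its 7 samples with at least 3 cells, Apoe was at 2991 CPM (SD 1118), Sparc at 589 (SD 217), Fabp7 at 91.5 (SD 35.6), Mbp at 159.5 (SD 52.0) and Glul at 86.9 (SD 45.4). In the other 9 clusters mean Apoe lay between 33.6 CPM (cluster 3, led by Shox2, Smpx and Hs3st2) and 170.1 CPM (cluster 1, whose leading genes included Anxa1 and Slc14a1). Mbp and Glul differed between neuronal clusters that held few glial-rich cells: mean Mbp was 15.9 CPM (SD 9.2) in cluster 3 and 84.1 CPM in cluster 4, and Glul 42.2 CPM in cluster 9 (Foxp2, Penk and Trpm8) and 131 CPM in cluster 4 (S100a16, Nppa and Kcnv1). When 22 variable genes of the glial lists were left out, 40 of the 42 cells still fell together, with 35 of the 43 glial-rich cells. Their cluster was again led by Tyrp1, Ptgds and Sostdc1. Unlisted genes that follow the members over cells, such as Tyrp1, were not left out. The rerun therefore cannot show that the cluster is independent of glial genes. In the added series 17 of 18 glial-rich cells were in cluster 0 (136 cells, led by Kcng1, Insrr and Chp2), and with 27 such genes left out a cluster of 28 cells held 17 of them. Cluster levels are no evidence for the genes, since clustering used the same cells.

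The injury comparison asked whether the members differed between sham and SNC ganglia at 1, 3 and 7 days. UMIs were summed per sample and fitted with edgeR's quasi-likelihood test over 14239 genes in the 16 labelled samples, with Benjamini-Hochberg adjustment. None of the 5 members was called at any time at an adjusted p under 0.05. The share of all tested genes called was 0% at 1 day, 0% at 3 days and 0% at 7 days, and at an unadjusted p under 0.05 it was 8.73% (1243 genes), 4.17% (594) and 3.34% (476). DESeq2 on the same sums called 9, 1 and 0 genes. No member had sham and SNC samples that did not overlap, which 2.9%, 6.11% and 0.85% of all genes had at the 3 times. Fewer glial cells picked with the neurons and less RNA in each of them cannot be told apart in such sums.

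At 3 and 7 days the values of Apoe, Sparc, Fabp7 and Mbp nevertheless lay below sham. Apoe had a log2 difference of -1.94 (SE 0.75) at 3 days and -1.86 (SE 0.63) at 7 days, and a mean of 83.03 TMM CPM (SD 24.9, n = 5) at 7 days against 305 (SD 348, n = 4) in sham. Sparc had -2.04 (SE 0.77) and -1.99 (SE 0.64), with 24.2 TMM CPM (SD 7.51) at 7 days against 98.1 (SD 126) in sham. Fabp7 had -1.34 (SE 0.78) and -1.79 (SE 0.67), and Mbp -1.13 (SE 0.48) and -0.81 (SE 0.41). Adjusted p from edgeR with Benjamini-Hochberg adjustment was 0.97 for each at 3 days and 1.00 for each at 7 days. The unadjusted p was under 0.05 for 3 of the 5 members at 3 days (Apoe, Mbp and Sparc) and for 3 at 7 days (Apoe, Fabp7 and Sparc), all lower after SNC.

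These differences rested to a large part on sample Xin. Without it the log2 difference was -0.75 for Apoe, -0.60 for Sparc, -0.45 for Fabp7 and -0.33 for Mbp at 3 days, and -0.67, -0.55, -0.90 and -0.01 at 7 days, none with an unadjusted p under 0.05. With the glial-rich cells of all samples left out and Xin kept, they were -1.24 for Apoe, -1.03 for Sparc, -0.89 for Fabp7 and -1.12 for Mbp at 3 days, and -0.84, -0.55, -0.50 and -0.71 at 7 days. Those cells were chosen by the sum of the members themselves, so these values are a description. Mbp thus differed little with and without the glial-rich cells. Reverse transcription of Xin, 4, 10, S, 8 and 9 fell in the year before that of the other 10 labelled samples. Within the earlier year the 7 day differences were -1.80 for Apoe, -2.19 for Sparc, -1.82 for Fabp7 and -1.11 for Mbp, with Xin among the 3 sham samples. All samples at 1 and 3 days were of the later year, with 1 sham sample and so without a within-year test, and with year as a term the 3 day differences were -1.32, -1.67, -1.12 and -1.20 in the same order. Sham sample 4 shared its date of reverse transcription with 8, sham sample 10 shared one with 9, and 17-1, 17-2, 17-3, 19-1 and 19-2 shared another. With that date as a block, a fit chosen after the data had been seen that leaves few residual degrees of freedom and gives no weight to Xin, alone on its date, the 7 day differences were -0.23 for Apoe, -0.50 for Sparc, -0.85 for Fabp7 and -0.0014 for Mbp, and those at 3 days were 0.46, -0.32, -0.33 and -0.41. None of these had an unadjusted p under 0.05.

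At 1 day the members other than Glul lay close to sham for their errors. Apoe differed by -0.25 (SE 0.66), Sparc by -0.64 (SE 0.67), Fabp7 by 0.28 (SE 0.69) and Mbp by -0.12 (SE 0.44), with edgeR adjusted p of 0.93, 0.81, 0.93 and 0.96. Without Xin these became 0.94, 0.79, 1.17 and 0.68, and without 17-1, the highest sample at 1 day, they became -0.97, -1.32, -0.57 and -0.23. With the preparation date as a block they were 2.503, 1.54, 2.11 and 0.49, with edgeR adjusted p of 0.21, 0.28, 0.34 and 0.74. The direction at 1 day thus depended on Xin and 17-1, of 24 cells each. The date block leaves Xin without weight, so its sign changes for Apoe, Sparc and Mbp are not separate from leaving out Xin.

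Glul was the member least touched by any of these samples. Its log2 difference was 0.24 (SE 0.12) at 1 day, -0.15 (SE 0.13) at 3 days and 0.18 (SE 0.12) at 7 days, with edgeR adjusted p of 0.59, 0.97 and 1.00. Its mean was 101.4 TMM CPM (SD 15.3, n = 4) in sham and 115 (SD 7.05, n = 5) at 7 days. Without Xin the differences were 0.33, -0.05 and 0.27, so the sign at each time was kept.

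**Figure D5:**
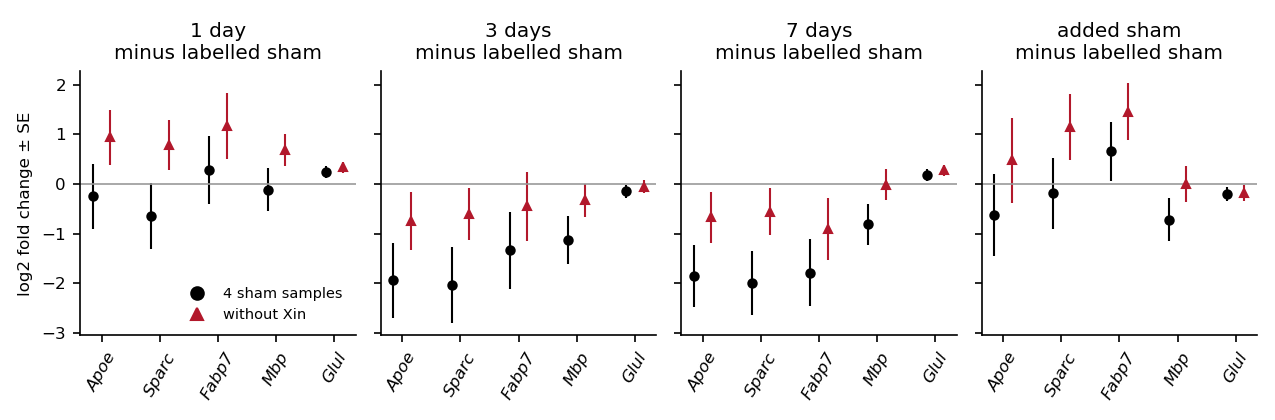
Log2 fold change against labelled sham with its standard error (vertical axis) for the 5 members at 1, 3 and 7 days after SNC and in added sham libraries, with all 4 sham samples (circles) and without Xin (triangles). At 3 and 7 days Apoe moves from -1.94 and -1.86 to -0.75 and -0.67 without Xin, at 1 day all 5 members lie above 0 without it, and Glul lies between -0.20 and 0.33 in every panel.

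Other glial genes were read beside the members from lists of satellite, Schwann and shared genes. Xin was among the sham samples of this fit, and no list values without it are given. Of 9 tested genes of the shared list (such as Sox10, Cdh19 and Vim), 8 were lower at 3 days and 8 at 7 days, with median log2 differences of -1.41 and -1.504 against -0.0049 and -0.01 over all genes, and none was called. Of 8 tested satellite genes other than the members, 6 were lower at 3 days with a median of -0.53 and 5 were higher at 7 days with a median of 0.07, and at 7 days myelinating Schwann genes had 6 of 8 lower with a median of -0.58. At 1 day 7 of 8 satellite and 7 of 8 myelinating Schwann genes were higher, with medians of 0.31 and 0.93, while 7 of 9 shared genes were lower (-0.20). Fibroblast genes (4 of 6 tested) were lower at 3 days in 4 of 4 and at 7 days in 3 of 4, and macrophage genes (4 of 7) were lower in 3 of 4 at 3 days and higher in 3 of 4 at 7 days. Summed levels of these cell types were small in every labelled sample, 2.99 to 15.5 CPM for the fibroblast list, 8.90 to 40.1 for macrophages, 7.64 to 17.1 for endothelium and 0.57 to 7.71 for mural cells, against 379 to 936 CPM for the shared glial list. Their part in the member values was not tested.

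Genes of the pathways around the members showed no called change after SNC. Of 5 genes that act with Apoe in lipid transport (among them the exporter Abca1, the receptor Lrp1 and the apolipoproteins Apod and Clu), 4 were higher at 3 days and 2 at 7 days, with medians of 0.07 and -0.11. Of 4 genes of glutamine use (among them the transporters Slc38a1 and Slc38a2 and the glutamate dehydrogenase Glud1), 3 were higher at 3 days and 4 at 7 days, with medians of 0.06 and 0.09. Of 4 tested relatives of Sparc (from Sparcl1, Smoc1, Smoc2, Spock1 and Spock2), 3 were higher at 3 days and 4 at 7 days, and of the 2 tested relatives of Fabp7 1 was higher at each of these times.

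The added sham libraries were set against the labelled sham samples in a fit of their own over 15791 genes. Here 40.6% of all genes were called, 24.2% higher and 16.5% lower in the added libraries, and 0 of the 5 members was among them, nor did any member pass in DESeq2 or at an unadjusted p under 0.05, which 49.5% of all genes did. No member had groups without overlap, against 28.1% of all genes. Apoe differed by -0.62 (SE 0.83), Sparc by -0.19 (SE 0.72), Fabp7 by 0.66 (SE 0.60), Mbp by -0.72 (SE 0.44) and Glul by -0.20 (SE 0.15), with edgeR adjusted p of 0.57, 0.85, 0.40, 0.21 and 0.29. The median over all genes was 0.15 on this scale. The 4 sham times of the added series were pooled, and how these libraries were prepared, whether their cells were picked by dye and which rats they came from cannot be told apart.

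The values changed with the samples kept. Without Xin the differences were 0.48 for Apoe, 1.15 for Sparc, 1.46 for Fabp7 and -0.00076 for Mbp, with Fabp7 at an edgeR adjusted p of 0.066. Without Xin, S1 and S2 they were 0.93 for Apoe, 1.55 for Sparc, 1.78 for Fabp7, 0.12 for Mbp and -0.14 for Glul. These 3 samples were picked after the data had been seen, by their own levels of the members (Xin high, S1 and S2 low in Apoe), so the direction follows from the choice and no test is given. With glial-rich cells left out and all samples kept, Fabp7 stood at 1.66 and Sparc at 1.37. That setting removes cells by the sum of the members, which in Xin takes away 93.8% of the Fabp7 UMIs, so it is a description too. Without S4, singled out for its high Mbp, Mbp was at -1.05. A lower value follows from leaving out the added library with the most Mbp, so no test is given here either. Glul was called under none of the settings tried.

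In the same comparison, where 24.2% of all genes were higher and 16.5% lower, 1 of 9 tested satellite genes was called, Ptprz1, which was higher in the added libraries (1.13, SE 0.33). Pmp22 (-0.63) was the 1 called of 8 tested myelinating Schwann genes and Gap43 (-1.47) the 1 of 5 of the list of non-myelinating Schwann genes, and both were lower. Of the 9 tested shared glial genes none was called, with a median of 0.47. Of other cell types, 1 of 4 tested fibroblast genes was called (Pdgfra, 1.39), 1 of 3 endothelial genes (Flt1, 3.12) and 2 of 3 mural genes (Rgs5, 2.59, and Pdgfrb, 1.93), all higher, and of 6 macrophage genes Ptprc was higher (3.27) and Cd74 lower (-3.53). Of 8 neuronal genes 4 were called, and Tubb3 (-1.10), Uchl1 (-0.65), Stmn2 (-0.69) and Prph (-0.50) were all lower. Around the members, Apod (2.56) and Lrp1 (1.40) were higher and Clu lower (-0.67), Slc38a2 (0.87) and Glud1 (0.71) were higher, Smoc2 (1.55) was higher and Spock2 (-0.88) lower, and Fabp5, an epidermal relative of Fabp7, was lower (-1.17). The fibroblast list summed to between 6.93 and 46.3 CPM in the added libraries and the mural list to between 4.05 and 15.9 CPM, both reaching above the labelled range.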

How the data were processed

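Single neurons were sequenced by a modified Smart-seq2 protocol with cell barcodes and UMIs on the oligo-dT primer. The deposited count tables hold raw UMI counts per gene and cell, which per the labels the authors made with STAR, SAMtools, featureCounts of Subread and UMI-tools on Rnor_6.0. Counts were made per gene, so classic and golli Mbp transcripts are not separated.

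The 5 members and all gene lists were chosen with earlier results of these data known. Genes named in the text are the members, the listed genes, the 5 genes most like each member over cells, the 3 most like it over samples and the 3 leading genes of a cluster. Cells were kept at 500 genes, 1000 UMIs and under 5% mitochondrial UMIs, and depth ran from a median of 239286 UMIs in labelled to 340145 in added cells. No doublet caller was run and cells were not corrected for batch. Thinning drew 20000 UMIs a cell and left out 54 cells. Intervals are exact (Clopper-Pearson).

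UMI counts were summed per ganglion sample (libraries S-2 and S-3 are sample S) and fitted with edgeR 4.0.16 (TMM, filterByExpr, quasi-likelihood test, Benjamini-Hochberg adjustment over all genes tested, threshold 0.05) in R 4.3.3, and SE is the log2 fold change divided by the square root of F. DESeq2 1.42.0 and limma 3.58.1 were alternatives, as were other size factors, no filter on low counts, thinned cells, sums without glial-rich cells, mean CPM over cells, merging of 17-1 with 17-2 and 19-1 with 19-2, leaving out each sample and a year term. Fits without S1 and S2, without Xin, S1 and S2, within the earlier year of reverse transcription and with its date as a block were chosen after the data had been seen. Fabp7 was too low to be tested in the thinned labelled fit. Some genes that the naming rule picked are not reported here. Per the labels ganglia came from at least 5 rats for each time, but which rat gave each sample is not given, so p-values measure the spread between these samples, which may be technical. Clusters were made in Seurat 5.3.0 (2000 variable genes, 40 principal components, resolution 0.5). The scripts were tested on simulated data. Tables and plots used Python 3.11.15 with NumPy 2.4.6, pandas 2.3.3, SciPy 1.17.1 and matplotlib 3.10.9.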

Additional observations from a re-analysis of the deposited data

Results flagged for a closer look

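Of 44 groups of samples examined for a value far from the rest, 9 held such a value by Dixon's ratio, used here to flag values and not as a test. The groups share samples and related measures, and Xin had been noticed in earlier results of these cells, so these values are a description. Among the 4 labelled sham samples, Xin was set apart by its summed Apoe (838 TMM CPM, next sample 194), its summed Sparc (291, next 53.7), its median Mbp per cell (149.6 CPM, next 37.0) and its share of glial-rich cells (29.2%, next 5.21%). Among the 4 samples at 1 day, 17-1 was set apart by its median Mbp (87.6 CPM, next 37.4) and its median Sparc (59.4 CPM, next 11.2). Among the 7 added libraries, S4 was set apart by its summed Mbp (131 TMM CPM, next 55.8), its median Mbp (97.8 CPM, next 25.3) and its median Sparc (63.4 CPM, next 19.0). Xin and 17-1 hold 24 cells each, and no cause was tested.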

How the results depend on the processing

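Of 472 member values under alternatives, 440 kept direction and side of the threshold, 3 became called with the same sign and 29 changed sign. All 129 at 7 days and 123 of 124 at 3 days kept both, although uncalled values say little about stability. Apoe and Sparc without Xin, S1 and S2 were among the sign changes. Mbp without S4 was among the 3 that became called. These samples were singled out by their own member levels, so both outcomes follow from the choice and are not read as tests. With the reverse transcription date as a block Apoe was 0.46 at 3 days, and Apoe was 2.503, Sparc 1.54 and Mbp 0.49 at 1 day. That fit rests on 17-3 at 3 days and on 17-1 and 17-2 at 1 day. At 1 day Apoe was 0.056 with thinned cells, 0.64 without glial-rich cells and 0.37 with a year term, Sparc 0.67 without glial-rich cells and 0.030 as mean CPM, Mbp 0.013 with thinned cells and 0.12 as mean CPM, and Fabp7 -0.066 with 17-1 and 17-2 merged. Leaving out each sample gave -0.97 to 0.94 for Apoe, -1.32 to 0.79 for Sparc, -0.57 to 1.17 for Fabp7 and -0.36 to 0.68 for Mbp. In the added comparison Apoe was 0.53 without glial-rich cells and ranged from -0.95 to 0.48 over samples left out, and Sparc was 0.20 thinned, 1.37 without glial-rich cells, 0.23 as mean CPM, 0.18 without S1 and S2 and -0.56 to 1.15 over samples left out. Without Xin, S1 and S2 Apoe was 0.93, Sparc 1.55 and Mbp 0.12. Genes called at 1 day numbered 9 in DESeq2 and 1 with a year term or a date block, and 0 to 1 over samples left out (1 without 19-2). At 3 days 1 gene was called in DESeq2, without the filter, with thinned cells, as mean CPM and with a year term, 3 were with a date block, and 0 to 1 over samples left out (1 without 17-3). Glial-rich cells were 9.70% of all, 7.10% of labelled and 14.5% of added cells at 1000 CPM, and 0.558%, 0.645% and 0.398% at 5000 CPM. A sum of at least 1000 CPM over the shared glial genes was met by 23.4%, 18.4% and 32.8%. That list includes S100b. In samples with glial-rich cells, their other cells already held 344 CPM of it (labelled) and 552 CPM (added). The sum is thus not a measure of the same cells. Thinning took the share of UMIs in the top 10% of cells to 100% and 93.1% for Fabp7 and to 29.4% and 32.2% for Glul, labelled and added.

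No paired analysis was possible because the labels give no replicate numbers, those used follow accession order, and samples are tied across groups only by the date used as a block. The cause of each change was not tested. Xin and 17-1 rest on 24 cells, Fabp7 is at 0 in the median cell, and glial RNA picked with a neuron cannot be separated from its own.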

Other observations

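Of the 31 cells outside the limits on genes, UMIs and mitochondrial share, 7 of 25 in the added series had member sums of at least 2000 CPM, between 2576 and 18928 CPM. They came from S1, S4 and S6, had 916 to 74081 UMIs and 5.19 to 30.8% mitochondrial UMIs. None of the 6 such labelled cells did. With no limits on cells, 68 of 1464 cells were glial-rich, among them 4 of 48 in S1.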
